A study of Mus musculus with 58 samples.

Results

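Mice labelled heterozygous for Tanc2 (HT) were compared with wild-type mice (WT) that, like them, had received vehicle and neither of the study's drugs. RNA of the prefrontal cortex was sequenced on postnatal day 25, and 19 of the 58 libraries of the study carry the vehicle label: 5 HT females, 5 HT males, 5 WT females and 4 WT males, all of the C57BL/6J strain. Every gene with at least 10 normalized reads in at least 4 of the 58 libraries was tested, which was 17925 of the 18088 genes in the deposited table. The other 39 libraries came from HT and WT mice that took up fluoxetine or lithium through the mother's milk from postnatal day 3 to day 24. They are used below only to share the estimate of spread and to set the same genotype difference beside the one under vehicle. The labels do not give litters, the altered part of the gene or how the mutant allele was made, so p-values measure the spread between these mice, some of which may be littermates.

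TANC2 is a large scaffold protein with ankyrin and tetratricopeptide repeats that sits in the postsynaptic density of excitatory synapses. It binds DLG4 and other density scaffolds, captures vesicles carried by the kinesin KIF1A at dendritic spines, and is known to bind and restrain the mTOR kinase complexes, which drive protein and lipid synthesis. In people, TANC2 mutations are linked to developmental delay and autism.

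The vehicle libraries held between 24060000 and 30520000 whole reads (median 28800000), and sex-specific genes matched the sex label in 19 of 19. A few libraries stood apart from the others of their group. HT male 1, with the fewest reads, had high interferon-induced genes, HT female 1 had low myelin genes, WT male 3 had low myelin, striatal and immediate early genes, and genes of olfactory bulb and migrating neuroblasts ranged widely in both genotypes. Their values are given beside the results they touch.

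No gene differed between HT and WT mice under vehicle after adjustment for 17925 tests. The difference was fitted with limma on log2(normalized reads + 1), with the HT minus WT differences of females and of males weighed equally, and the smallest adjusted p was 0.586. Of all genes, 814 (4.54%) had an unadjusted p under 0.05, 456 (2.54%) of them higher and 358 (2.0%) lower in HT. edgeR's quasi-likelihood test on the recovered whole reads likewise called 0 genes and left 830 below an unadjusted 0.05. DESeq2 left 818 below it and called 3 (0.0167%; Pla2g3 and the pseudogenes Gm12671 and Gm10222). For no gene (0%) did the values of the 10 HT mice stand wholly apart from those of the 9 WT mice. All 10 HT mice lay above the WT mean of their own sex for 147 genes (0.820%), and 0 of 10 did for 96 genes (0.536%). The design was precise for most genes: the median standard error (SE) was 0.071 on the log2 scale, and for 15239 genes (85.0%) the 95% confidence interval of the difference lay within 1.5-fold in both directions.

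On average, HT mice had slightly more Tanc2 reads than WT mice, and no gene-wide reduction was seen. The gene spans 105589986 to 105929304 of chromosome 11 (GRCm38; ENSMUSG00000053580). It had 7756, 8149, 7734, 7683 and 7819 normalized reads in the 5 HT females, and 8380, 7766, 8636, 8511 and 8490 in the 5 HT males. WT females had 6939, 8005, 7680, 7545 and 7320, and WT males 7782, 7809, 6961 and 7828. The groups overlapped, and 5 HT mice (female 2 and males 1, 3, 4 and 5) lay above every WT mouse. The difference was 0.10 ± 0.044 (log2, SE; limma unadjusted p = 0.0244, adjusted p = 0.947), or 8093 ± 381 reads (SD, n = 10) against 7541 ± 387 (SD, n = 9), and it was 0.099 in the fluoxetine and 0.089 in the lithium libraries. These are reads over the whole gene, so they do not check an altered exon or the protein, and the labels alone define HT and WT here. Tanc1, the close relative, ranged from 394 to 634 in HT and from 434 to 602 in WT, a difference of -0.031 ± 0.12. The 5 tested genes on each side of Tanc2 differed by -0.44 (Gm11620) to 0.069 (Kcnh6), with none past the adjusted threshold. Taco1os, the next gene beyond them, was named after its value was seen: its level was 6 to 18 normalized reads in HT and 3 to 13 in WT, a difference of 0.71 ± 0.22 (limma adjusted p = 0.947).

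The known partners of TANC2, the mTOR pathway and the postsynaptic density differed little in the measured RNA. Of 25 TANC2 partners, Tanc2 itself was the single gene with an unadjusted p under 0.05, 5 were higher and 20 lower (all genes: 50.2% higher, 49.8% lower), and the median difference was -0.027, beside 0.00034 over all genes. The partners' median was -0.041 without HT female 2 and -0.043 without WT male 3. Grin2b, an NMDA receptor subunit, was lowest at -0.090 ± 0.068. Its level was 19080 to 24515 in HT (median 21699) and 20530 to 24588 in WT (median 23582), with broad overlap. Dlg4, the main scaffold of the density, differed by -0.021 ± 0.056, Kif1a by -0.041 ± 0.049, and the TNIK kinase gene Tnik by -0.024 ± 0.041. For 25 of 25 partners the confidence interval excluded a 1.5-fold difference in either direction.

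Among 67 genes of the mTOR pathway, 35 were higher and 32 lower in HT, with a median of 0.0017 (-0.0049 to 0.0093 without each mouse in turn). Mtor itself differed by -0.0071 ± 0.033, the raptor gene Rptor by -0.017 ± 0.033, and the brake genes Tsc1 and Tsc2 by 0.016 ± 0.035 and 0.0017 ± 0.028. The 1 member with an unadjusted p under 0.05 was Rps6kb2, a kinase of ribosomal protein S6, at 767 to 984 normalized reads in HT (median 906) and 646 to 924 in WT (median 791). Its difference was 0.19 ± 0.063 (limma unadjusted p = 0.00402, adjusted p = 0.947), with 8 of 10 HT mice above the WT mean of their sex, and it was -0.062 and -0.041 in the fluoxetine and lithium libraries. All 67 intervals lay within 1.5-fold.

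Of 46 postsynaptic scaffold and adhesion genes, 14 were higher and 32 lower (median -0.020, and -0.037 to -0.010 without each mouse in turn, the extremes without HT female 2 and without WT female 3), 0 had an unadjusted p under 0.05, and 46 of 46 intervals lay within 1.5-fold. Shank2 and Shank3 differed by -0.012 ± 0.066 and 0.016 ± 0.068. Among 36 glutamate receptor genes, 12 were higher and 24 lower (median -0.019, and -0.012 without WT male 1), and Grm7, a presynaptic metabotropic receptor, was the 1 member past an unadjusted 0.05 (-0.12 ± 0.049, 1 of 10 HT mice above the WT mean of their sex). The 58 genes of the presynaptic release machinery leaned lower, 10 higher and 48 lower with a median of -0.050, but 1 of them (Erc1, an active zone scaffold, -0.089 ± 0.041) had an unadjusted p under 0.05. Among 24 GABA genes, 8 were higher and 16 lower, with a median of -0.024.

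**Figure D1:**
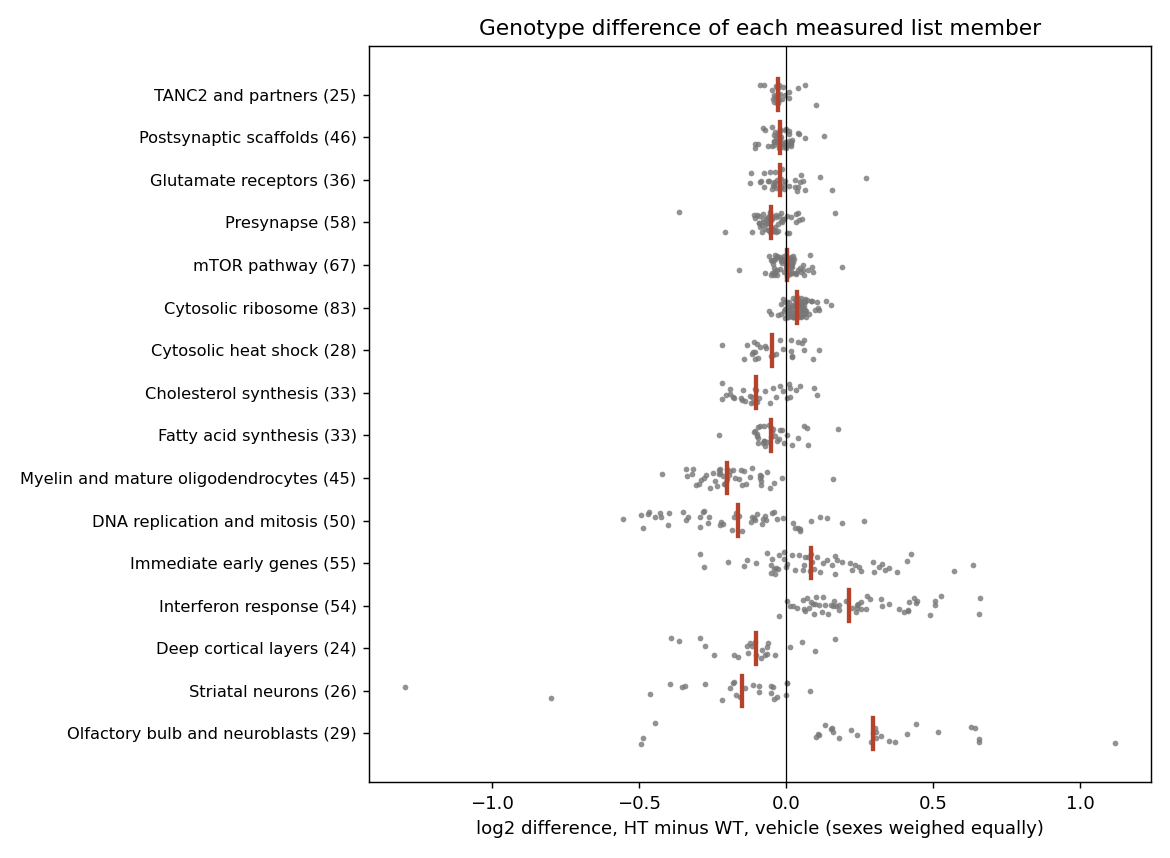
Genotype difference under vehicle (log2, HT minus WT, sexes weighed equally) of every measured member of 16 gene lists. Each grey point is a gene, the red bar is the list's median, and the number of members is in brackets. TANC2 partners, postsynaptic scaffolds and mTOR genes sit close to 0, most cholesterol synthesis and myelin genes lie below it, and 53 of 54 interferon genes lie above it. The interferon median is 0.21 with all mice and 0.072 without HT male 1.

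Among single genes, the smallest p belonged to Pla2g3 (ENSMUSG00000034579, chromosome 11, 3488284 to 3499350), which encodes a secreted phospholipase A2. It had 179, 125, 193, 176 and 143 normalized reads in HT females and 169, 151, 126, 106 and 157 in HT males. WT females had 116, 105, 90.3, 98.3 and 52.0, and WT males 87.5, 85.1, 128 and 102. In females the genotypes did not overlap, in males they did through WT male 3 and HT males 3 and 4. The difference was 0.67 ± 0.15 (HT 152 ± 27.7, WT 95.9 ± 21.5, SD, n = 10 and 9; 10 of 10 HT mice above the WT mean of their sex), with a limma adjusted p of 0.586. DESeq2 gave an adjusted p of 0.031 and a limma fit with library weights 0.018, within a range of 0.018 to 1 over 30 alternative fits, 2 of which called it. In the fluoxetine and lithium libraries the same difference was -0.020 and 0.010. Of 18 phospholipase A2 and related genes measured, 9 were higher and 9 lower, and Pla2g3 alone had an unadjusted p under 0.05.

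Cbx7 and Bmp1 followed among the higher coding genes averaging at least 50 normalized reads. Cbx7 (ENSMUSG00000053411, chromosome 15, 79915807 to 79971119) encodes a chromodomain subunit of a Polycomb repressive complex, which reads methylated histone tails. It had 896 to 1061 normalized reads in HT (median 998) and 840 to 944 in WT (median 898), and 10 of 10 HT mice lay above the WT mean of their sex. The difference was 0.14 ± 0.037 (limma adjusted p = 0.947). Bmp1 (ENSMUSG00000022098, chromosome 14, 70474558 to 70520234), the protease that trims procollagens, had 2190 to 2995 normalized reads in HT (median 2694) and 1976 to 2389 in WT (median 2215). Only HT males 3 and 4 lay within the WT range, and the difference was 0.25 ± 0.067, at 0.36 ± 0.092 in females and 0.15 ± 0.097 in males (limma adjusted p = 0.947 for both sexes together).

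The other 12 coding genes of the 15 with the smallest p on the higher side, among those averaging at least 50 normalized reads, differed by 0.094 to 0.51. Tnnt2, a cardiac troponin T expressed at a low level here, had 79.6 to 152 normalized reads in HT and 54.7 to 83.1 in WT (0.51 ± 0.14). Rnf207, a RING finger gene, was at 0.38 ± 0.12, Ovgp1, an oviductal glycoprotein, at 0.38 ± 0.12, and Arv1, an endoplasmic reticulum protein of sterol transport, at 0.24 ± 0.067. Thbs3, a thrombospondin of the extracellular matrix, was at 0.22 ± 0.066, and Cnbd2 at 0.22 ± 0.071. Rabl2 (0.19), Phlda1 (0.19), Aldh6a1, a mitochondrial enzyme of valine breakdown (0.18), the endosomal adaptor gene Appl2 (0.17), Saal1 (0.16) and Farp1, a dendritic exchange factor for small GTPases (0.094), made up the rest. Each of these had a limma adjusted p of 0.947.

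The 15 genes on the lower side fell largely into sterol synthesis and cell division. Prc1 (ENSMUSG00000038943, chromosome 7, 80294450 to 80316259), which bundles spindle microtubules in dividing cells, had 33.2, 39.2, 36.4, 59.0 and 47.0 normalized reads in HT females and 25.7, 51.4, 28.4, 40.3 and 55.0 in HT males. WT females had 61.2, 57.6, 60.5, 60.2 and 58.5, and WT males 53.6, 66.0, 71.7 and 49.3. None of the 10 HT mice reached the WT mean of its sex, though the ranges overlapped, and the difference was -0.56 ± 0.15 (limma adjusted p = 0.947). Sqle, Hmgcs1, Idi1 and Nsdhl are enzymes of cholesterol synthesis. Mki67, Mcm3, Mcm2 and Tpx2 are genes of DNA replication and mitosis, and Kpna2 is counted in the same list below. Kpna2 averaged 935 normalized reads in the vehicle mice, and the others 63.2 (Mcm3) to 106 (Mcm2). Others were Hspd1, the DNA ligase gene Lig4 (-0.18 ± 0.059), the actin-severing gene Dstn (-0.083 ± 0.028) and Abce1, which recycles ribosomes (-0.10 ± 0.034).

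**Figure D2:**
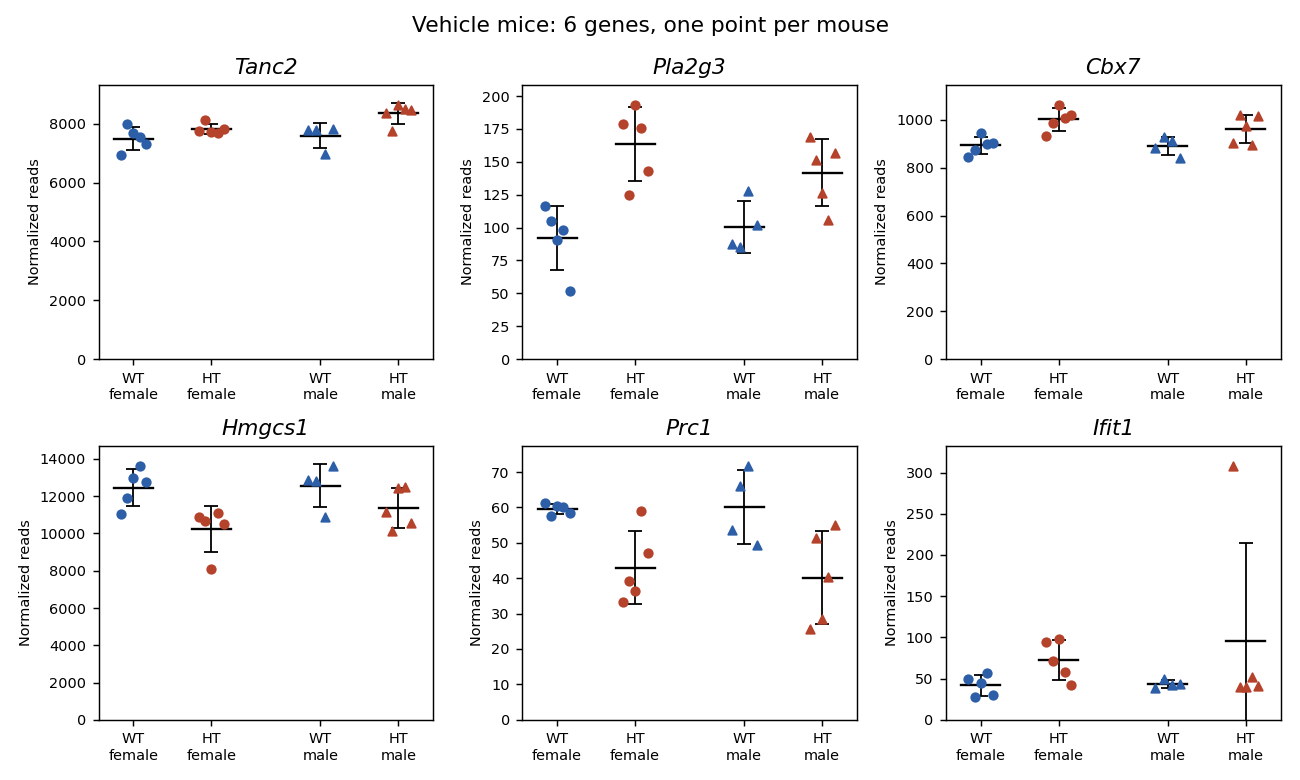
Normalized reads of Tanc2, Pla2g3, Cbx7, Hmgcs1, Prc1 and Ifit1 in each vehicle mouse, WT in blue and HT in red, females as circles and males as triangles, with the mean and SD of each group as bars. Tanc2 is not lower in HT, Pla2g3 is the clearest of the higher genes with HT mice at 106 to 193 and WT mice at 52.0 to 128, and Ifit1 is set apart by HT male 1 at 308.

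Genes of cholesterol synthesis leaned lower in HT mice. This pathway builds cholesterol from acetyl-CoA and is switched on by SREBP factors when sterols run low, and myelinating glia and astrocytes are its main sites in the young brain. Of 33 members, 25 were lower and 8 higher, the median was -0.10, and 13 (39.4%, beside 4.54% of all genes) had an unadjusted p under 0.05, all 13 lower. None passed the adjusted threshold. Members of 1 pathway measured in the same mice can vary together, so the 13 are not independent observations. This list, like the other gene lists, was chosen with earlier results of these data known. The counts and shares of the lists, set beside those of all genes, are therefore descriptions only and not a test. Leaving out each vehicle mouse in turn moved the median between -0.125 and -0.085. Hmgcs1, which makes HMG-CoA, had 10876, 10655, 8109, 11083 and 10496 normalized reads in HT females and 11179, 10132, 12420, 12476 and 10557 in HT males. WT females had 11053, 11879, 12965, 13608 and 12782, and WT males 12871, 12842, 10906 and 13623. WT females 1 and 2 and WT male 3 lay inside the HT range, 0 of 10 HT mice exceeded the WT mean of their sex, and the difference was -0.22 ± 0.065 (limma adjusted p = 0.947).

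The lower members came from every arm of the pathway. In the mevalonate arm, Mvd was at -0.19 ± 0.069 and Idi1 at -0.19 ± 0.058, and at the entry to sterols Fdft1, the squalene synthase, was at -0.15 ± 0.057 and Sqle, the squalene epoxidase, at -0.21 ± 0.056. In the later steps Nsdhl was at -0.22 ± 0.068, Msmo1 at -0.18 ± 0.069, Sc5d at -0.15 ± 0.053, Dhcr7 at -0.12 ± 0.049 and Cyp51 at -0.12 ± 0.057. Lss, which closes the sterol rings, was at 0.033 ± 0.039, and Lbr, a nuclear envelope reductase, was the highest member at 0.11 ± 0.064. Of the regulators, Insig1 was at -0.11 ± 0.051, Srebf2 was at -0.072 ± 0.039 and Scap at 0.0084 ± 0.032. The list's level in a mouse, taken as the mean log2 value of its members minus their mean over the 19 mice, ran from -0.17 to 0.054 in HT and from -0.072 to 0.12 in WT. 2 of 10 HT mice (males 3 and 4) lay above the WT mean of their sex. In the drug arms the list's median was 0.0035 (fluoxetine) and -0.021 (lithium).

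Fatty acid synthesis and desaturation genes gave a smaller lean of the same sign. Of 33 members, 26 were lower and 7 higher, with a median of -0.051. At an unadjusted p under 0.05, 6 (18.2%) were lower, beside 2.0% of all genes. Scd1, a desaturase, had 3045 to 4899 normalized reads in HT (median 4329) and 4431 to 5201 in WT (median 4640), a difference of -0.23 ± 0.088. Acly, which makes acetyl-CoA from citrate, was at -0.077 ± 0.029 and Acaca, the acetyl-CoA carboxylase, at -0.097 ± 0.039. The summed reads of the 33 genes were 98934 to 112642 in HT and 109946 to 115192 in WT, and the 2 ranges overlapped at their edge.

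Myelin genes were lower in nearly every case, each within the spread of the mice. Of 45 listed genes of myelin and oligodendrocytes, 44 were lower and 1 (Apod) higher, with a median of -0.20. An unadjusted p under 0.05 was found for 6 (13.3%), beside 4.54% of all genes. Mbp, a main myelin protein, ranged from 29984 to 61106 normalized reads in HT (median 52385) and from 37088 to 78692 in WT (median 61638), a difference of -0.23 ± 0.17. The smallest p was that of Qdpr, a pteridine reductase enriched in oligodendrocytes (-0.12 ± 0.047), and Lpar1 (-0.26 ± 0.11) and Gpr37 (-0.30 ± 0.13) had 0 of 10 HT mice above the WT mean of their sex. These genes come mostly from 1 cell lineage and varied together across mice, so the count of 44 is not a count of independent observations. HT female 1 was lowest at -0.61 and WT male 3 was lowest of the WT mice at -0.33. Without HT female 1 the median was -0.14 and without WT male 3 it was -0.27. In females the median was -0.31 (44 of 45 lower) and in males -0.087 (35 of 45 lower), and it was 0.013 in the fluoxetine and -0.15 in the lithium libraries. Of 22 oligodendrocyte precursor genes 13 were higher (median 0.032, and 0.0099 to 0.046 without each mouse in turn). Sox10 and Olig1 are in both lists. In whole tissue, fewer cells of a type and less RNA per cell cannot be told apart.

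Genes of DNA replication and mitosis were also lower, several of them at low levels. The list of 50 genes was drawn up after Prc1, Mki67 and Mcm3 were seen among the lowest, so its count is a description only. Of its members, 40 were lower and 10 higher, and the median was -0.165 (-0.189 to -0.126 without each mouse in turn). At an unadjusted p under 0.05, 14 (28.0%) were lower and 0 higher, beside 2.0% and 2.54% of all genes. Mki67, the classic marker of cycling cells, had 66.3, 71.1, 59.2, 143 and 89.9 normalized reads in HT females and 86.9, 108, 87.2, 83.6 and 88.0 in HT males. WT females had 131, 127, 105, 99.3 and 117, and WT males 132, 162, 120 and 103. HT female 4 stood above every WT mouse but male 2, HT male 2 lay within the WT range, and the other 8 HT mice lay below it (-0.49 ± 0.16). Mcm2 and Mcm3, parts of the replicative helicase, were at -0.26 ± 0.088 and -0.34 ± 0.11, Tpx2, a spindle assembly factor, at -0.29 ± 0.098, Kif11, a spindle motor, at -0.33 ± 0.12, and Top2a, a topoisomerase of dividing cells, at -0.45 ± 0.20. The summed reads were 8908 to 10104 in HT and 9963 to 10515 in WT. The list's median was -0.18 in females, -0.14 in males, 0.010 in the fluoxetine libraries and 0.0032 in the lithium libraries.

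Promoters of many cell cycle genes hold the short motif TTTGAA, the cell cycle genes homology region. In RefSeq promoter windows (GRCm38.p6, 250 bases before to 50 after the start, both strands searched) it stood in 21 of the 41 listed genes with a window (51.2%), beside 1870 of 12668 tested genes (14.8%). The windows of the 2 lowest members are shown with the motif in capitals, Prc1 from chr7:80294201-80294500 on the plus strand and Mki67 from chr7:135716330-135716629 on the minus strand.
Prc1: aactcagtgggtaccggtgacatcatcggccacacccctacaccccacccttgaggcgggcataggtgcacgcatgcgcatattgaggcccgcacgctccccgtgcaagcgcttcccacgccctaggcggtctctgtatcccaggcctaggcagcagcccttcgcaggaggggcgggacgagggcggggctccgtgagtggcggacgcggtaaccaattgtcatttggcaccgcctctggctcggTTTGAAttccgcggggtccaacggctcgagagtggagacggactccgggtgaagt
Mki67: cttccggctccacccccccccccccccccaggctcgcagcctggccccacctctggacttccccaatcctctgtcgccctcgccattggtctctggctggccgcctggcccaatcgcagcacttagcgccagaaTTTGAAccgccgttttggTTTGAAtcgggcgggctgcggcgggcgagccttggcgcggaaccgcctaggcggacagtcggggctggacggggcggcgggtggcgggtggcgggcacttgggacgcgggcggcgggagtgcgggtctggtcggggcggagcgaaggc
Mki67 holds the motif in 2 places and Prc1 in 1. A match is a run of letters, not a measured binding site.

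Chaperone genes were a further group with more members lower than higher. Of 28 cytosolic and mitochondrial heat shock genes, 18 were lower and 10 higher (median -0.049). An unadjusted p under 0.05 was found for 6 (21.4%, beside 4.54% of all genes), all lower. Hspd1, the mitochondrial chaperonin, had 4037 to 4438 normalized reads in HT (median 4200) and 4173 to 5107 in WT (median 4549), and 0 of 10 HT mice reached the WT mean of their sex (-0.11 ± 0.034). Hspa8, the constitutive cytosolic chaperone, was at -0.13 ± 0.047 and Hsp90aa1 at -0.11 ± 0.041. Hsph1, an exchange factor relative of Hspa8, was at -0.22 ± 0.088 (HT 5577 to 8634, WT 7508 to 9560). In a list of 10 chaperonin genes chosen after Hspd1 was seen, 9 were lower and 1 (Hspe1) higher, so its counts are a description only. At an unadjusted p under 0.05, 4 (40.0%) were lower, beside 2.0% of all genes. Among them were the cytosolic ring subunits Cct8 (-0.12 ± 0.039) and Tcp1 (-0.092 ± 0.035). The heat shock element, searched on both strands as GAA, TTC and GAA with 2 bases of any kind between each, stood in 4 of 24 list members with a window (16.7%) and in 72 of the 12668 tested genes (0.568%). The window of Hspd1, chr1:55087883-55088182 on the minus strand, is shown with 2 overlapping matches in capitals.
Hspd1: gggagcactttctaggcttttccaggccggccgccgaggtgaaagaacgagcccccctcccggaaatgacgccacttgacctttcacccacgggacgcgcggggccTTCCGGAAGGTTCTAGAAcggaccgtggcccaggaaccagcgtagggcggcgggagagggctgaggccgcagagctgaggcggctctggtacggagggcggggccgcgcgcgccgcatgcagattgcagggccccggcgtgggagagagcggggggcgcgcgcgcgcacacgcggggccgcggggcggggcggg
Hspd1 and Hspe1, the co-chaperonin, lie head to head, so most of this window is also that of Hspe1, which was at 0.018 ± 0.061.

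Interferon-induced genes were higher in HT mice, and the size of the difference over both sexes together rested largely on 1 mouse, a male. These genes are switched on in any cell by type I interferon through a STAT and IRF9 complex. Of 54 members, 53 were higher and 1 (Cmpk2) lower, and the median was 0.21. An unadjusted p under 0.05 was found for 6 (11.1%, beside 4.54% of all genes), all higher. Ifit1, which binds foreign RNA, had 94.1, 71.1, 97.6, 58 and 41.8 normalized reads in HT females and 308, 39.3, 40.2, 52.4 and 41.0 in HT males. WT females had 49.7, 27.8, 44.1, 57.2 and 30.3, and WT males 38.3, 50, 41.8 and 43.2. HT male 1 was far above every other mouse, HT females 1, 2, 3 and 4 lay above the WT mice, and the other HT mice lay among them (0.66 ± 0.23). Irf7, the amplifier of the response, ranged from 35.0 to 306 in HT and from 30.3 to 56.4 in WT (0.66 ± 0.27). Without HT male 1 the list's median was 0.072, with 39 members higher and 15 lower. That mouse does not enter the female difference, which had a median of 0.22 (47 members higher, 7 lower). The list's level was 1.32 in HT male 1, -0.35 to 0.42 in the other 9 HT mice and -0.35 to 0.062 in the WT mice. HT male 1 also had the fewest reads of the vehicle libraries, and whether that bears on the difference was not tested. Of 29 microglial genes 13 were higher, with a median of -0.0071.

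The interferon-stimulated response element, searched on both strands as GAAA, 2 bases of any kind and GAAA, stood in 18 of 41 list members with a promoter window (43.9%) and in 469 of the 12668 tested genes (3.7%). It is printed in capitals for Ifit1, the member with the highest difference, from chr19:34640639-34640938 on the plus strand, and for Isg15, an antiviral ubiquitin-like protein, from chr4:156200769-156201068 on the minus strand.
Ifit1: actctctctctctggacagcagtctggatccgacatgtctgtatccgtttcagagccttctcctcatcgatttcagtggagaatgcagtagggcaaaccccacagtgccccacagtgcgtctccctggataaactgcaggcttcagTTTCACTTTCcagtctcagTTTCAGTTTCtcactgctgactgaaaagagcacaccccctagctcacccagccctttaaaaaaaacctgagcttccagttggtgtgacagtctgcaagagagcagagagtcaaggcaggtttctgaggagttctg
Isg15: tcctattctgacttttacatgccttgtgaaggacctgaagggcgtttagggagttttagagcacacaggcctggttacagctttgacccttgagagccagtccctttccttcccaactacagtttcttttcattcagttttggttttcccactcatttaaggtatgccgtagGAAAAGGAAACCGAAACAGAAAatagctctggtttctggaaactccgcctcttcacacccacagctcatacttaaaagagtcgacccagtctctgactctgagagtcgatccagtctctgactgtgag
In Ifit1 the element appears on the opposite strand in 2 separate places, and in Isg15 as 3 overlapping copies. Isg15 ranged from 15 to 148 normalized reads in HT (median 30.4) and from 17.9 to 30.6 in WT (median 25.2).

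More immediate early genes, which respond to neuronal activity within minutes, were higher than lower. Of 55 members, 38 were higher and 17 lower (median 0.085). An unadjusted p under 0.05 was found for 7 (12.7%, beside 4.54% of all genes), 6 higher and 1 lower. Npas4, an activity-specific transcription factor, had 1017, 445, 1001, 397 and 969 normalized reads in HT females and 740, 795, 379, 695 and 887 in HT males. WT females had 445, 428, 436, 405 and 773, and WT males 494, 414, 384 and 496. Of the HT mice, 5 lay above every WT mouse and 2 (males 1 and 4) above every WT mouse but female 5. The other 3 lay at 379 to 445, beside 384 to 496 in the WT mice other than female 5. The difference was 0.57 ± 0.20 (limma adjusted p = 0.947). Egr2 was at 0.64 ± 0.25, Nr4a1 at 0.34 ± 0.13, Btg2 at 0.43 ± 0.18, Junb at 0.30 ± 0.15 and Fos at 0.38 ± 0.22, with overlapping ranges in each. Ier5 went the other way (-0.20 ± 0.084; HT 1244 to 1620, WT 1323 to 1946), as did Nr4a2 (-0.29 ± 0.20) and Bdnf (-0.13 ± 0.094). Without HT male 1 the median was 0.053, and without WT male 2 it was 0.054. In the fluoxetine libraries the list's median was 0.11 and in the lithium libraries -0.11.

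**Figure D3:**
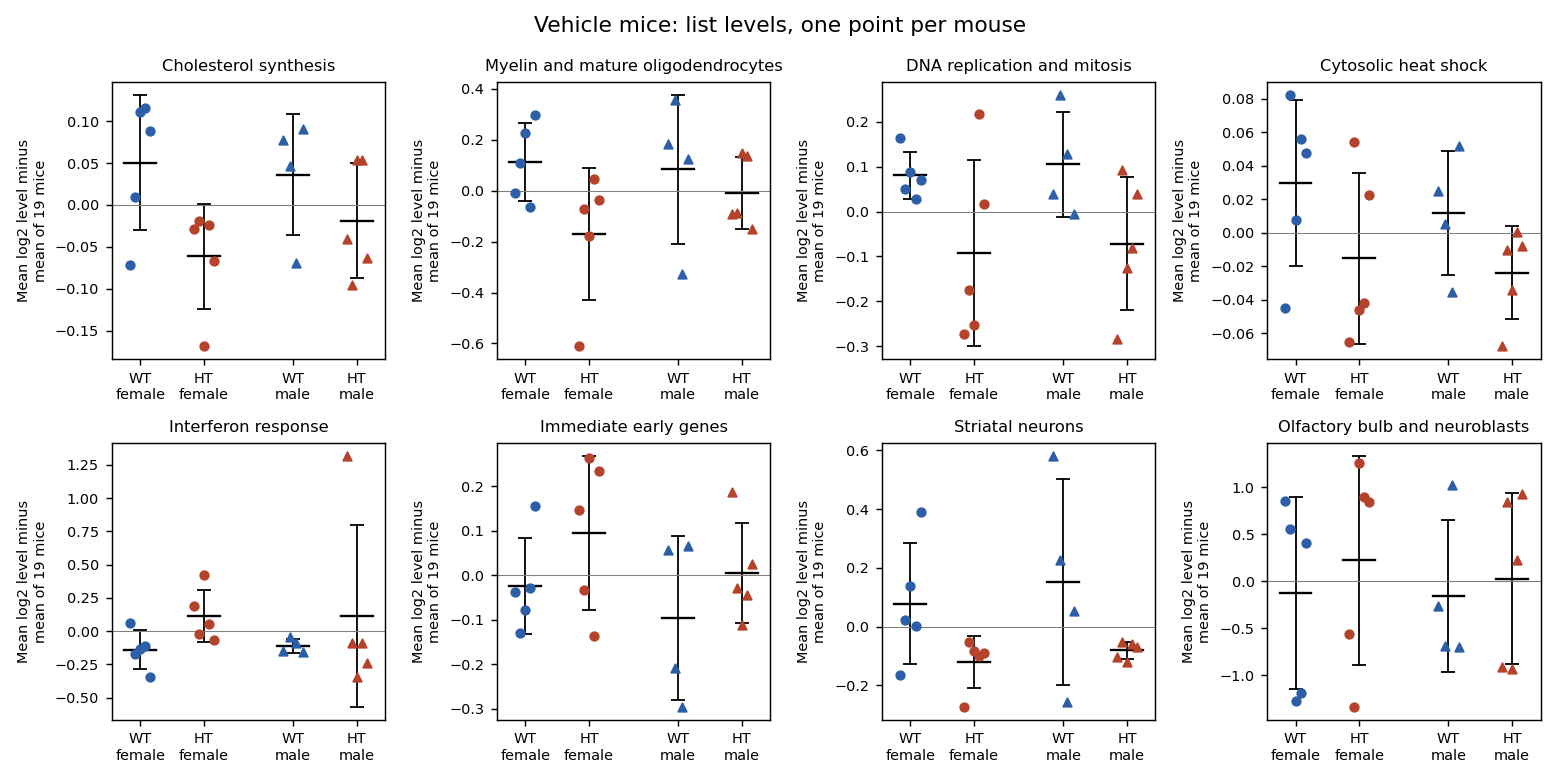
Level of 8 gene lists in each vehicle mouse, as the mean log2 value of the members minus their mean over the 19 mice, with WT in blue, HT in red, females as circles, males as triangles, and the mean and SD of each group as bars. HT male 1 stands at 1.32 for interferon genes and HT female 1 at -0.61 for myelin genes, HT mice cluster below 0 for striatal genes, and olfactory bulb genes spread widely in every group.

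Markers of neighbouring brain regions varied between mice, and so did the cortical layers. Striatal projection neuron genes were lower in 22 of 26 cases (median -0.15), with 0 members at an unadjusted p under 0.05, and their level was -0.27 to -0.051 in HT and -0.26 to 0.58 in WT. All 10 HT mice lay below the WT mean of their sex. WT male 1 (0.58) and WT female 5 (0.39) were the highest mice, and without WT male 1 the median was -0.084. Drd1, the D1 dopamine receptor, had 152 to 344 normalized reads in HT and 155 to 399 in WT. Deep cortical layer genes were lower in 20 of 24 cases (median -0.10), with Tbr1 at -0.13 ± 0.087, and upper layer genes were split evenly (9 higher, 9 lower, median 0.0023). Olfactory bulb and neuroblast genes were higher in 26 of 29 cases (median 0.30), but their summed reads spanned 17310 to 48268 in HT and 16905 to 40009 in WT. Leaving out 1 of 7 mice moved that median by more than 1.5 times, between 0.14 without HT female 3 and 0.47 without WT male 3. Dcx, a gene of migrating neuroblasts, had 1868 to 6266 normalized reads in HT (median 4100) and 2027 to 4863 in WT (median 2622), a difference of 0.29 ± 0.27. The 3 lower members were Mki67, Top2a and Pbk, which belong to the cell division list too. In the fluoxetine libraries the striatal median was 0.18 (22 of 26 higher), the deep layer median 0.040 and the olfactory median -0.31 (27 of 29 lower). All 3 had the opposite sign to vehicle. In the lithium libraries the striatal, deep layer and olfactory medians were -0.080, 0.025 and 0.25. How these markers bear on the other differences was not tested.

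Other lists differed by small medians, and several of these moved with single mice. Of 83 cytosolic ribosomal protein genes 73 were higher, by a median of 0.038, with 1 at an unadjusted p under 0.05. Among 77 nuclear genes of the respiratory chain 34 were higher and 43 lower (median -0.0065). Of 13 mitochondrially coded genes 12 were higher (median 0.040), but without WT female 2 the split was 6 higher and 7 lower (median -0.00010), and without WT female 1 the median was 0.073. Of 32 Polycomb genes, 24 were higher (median 0.015), and 4 (12.5%, beside 4.54% of all genes) had an unadjusted p under 0.05. They were Cbx7, Phf1 (0.14 ± 0.053), Ring1 (0.097 ± 0.038) and Pcgf2 (0.19 ± 0.076). Of 59 potassium channel genes 42 were lower (median -0.043), and 35 autism-linked genes were split 17 higher and 18 lower (median -0.0022). Astrocyte genes were higher in 22 of 28 cases (median 0.043, and 0.022 without HT male 2), with Sox9, a glial transcription factor, at 0.24 ± 0.084. The astrocyte median was 0.088 in females (22 of 28 higher) and -0.022 in males (11 of 28 higher). Interneuron genes (14 of 29 higher, median -0.0060) and unfolded protein response genes (14 of 31 higher, median -0.019) were split more evenly. Choroid plexus genes were lower in 12 of 15 cases, with a median of -0.099 that ran from -0.16 to -0.036 without each mouse in turn. Of these, 2 (13.3%, beside 4.54% of all genes) had an unadjusted p under 0.05. F5, a clotting factor, was at 4.16 to 28.0 normalized reads in HT and 16.1 to 41.2 in WT (-0.82 ± 0.38). Sulf1, a heparan sulfate sulfatase that is in the deep layer list too, was at -0.39 ± 0.17. Of 35 monoamine and acetylcholine receptor genes, 25 were lower (median -0.065, from -0.10 to -0.039 without each mouse in turn). The 2 at an unadjusted p under 0.05 were the nicotinic subunit gene Chrna5 (-0.36 ± 0.17) and the muscarinic receptor gene Chrm3 (-0.18 ± 0.088). That share (5.71%) is near the 4.54% of all genes.

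No gene differed between HT and WT mice of 1 sex alone in limma or edgeR. In females limma had 1030 genes (5.75%) at an unadjusted p under 0.05 and edgeR 979, and in males 288 (1.61%) and 292. The test of the difference between the sexes also called 0 genes in both, with 327 (1.82%) and 305 at an unadjusted p under 0.05. DESeq2 called 3 genes in females (0.0167%) and 1 each (0.00558%) in males and for the sex difference, namely Gm12671, Rps13-ps1 and Gm9794 in females and Gm10222 in the other 2. All 15 of the top higher genes and all 15 of the top lower genes had the same sign in both sexes, and 12 and 10 of them were larger in females, but these genes were chosen on the mean of the 2 sexes. Among coding genes averaging at least 50 normalized reads, the smallest p-values for females minus males were those of Mdm2, Calcrl and Mrc1 on the higher side and Rbm19, Irf2bp1 and Glyctk on the lower. Mrc1, the mannose receptor of brain border macrophages, was at 0.34 ± 0.16 in females and -0.33 ± 0.17 in males, and Calcrl, an endothelial receptor, at 0.25 ± 0.12 and -0.27 ± 0.13 (limma adjusted p = 1 for the interaction).

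Lists of the meninges, vessels and microglia had medians of opposite sign in females and males. Of all genes, 51.1% were higher and 48.9% lower in HT females, and 49.1% and 50.8% in HT males. Of 28 meningeal genes, 26 were higher in HT females (median 0.16) and 25 were lower in HT males (median -0.16). Endothelial genes were higher in 23 of 28 cases in females (0.044) and lower in 24 of 28 in males (-0.078). Microglial genes were higher in 20 of 29 (0.035) and lower in 24 of 29 (-0.036). For both sexes together the median SE of a member was 0.080 (endothelial) and 0.084 (microglial). HT male 1 was the lowest HT mouse in both of these lists. The level of the meningeal list ran from -0.38 to 0.31 in HT and from -0.33 to 0.40 in WT, with broad overlap. WT male 3 was highest at 0.40, and HT males 1 and 3 were lowest at -0.38 each. Mitochondrially coded genes were higher in 12 of 13 cases in females (median 0.12) and lower in 9 of 13 in males (-0.041), with WT female 2 lowest at -0.38. The medians of the myelin, cholesterol, interferon, immediate early and cell division lists had the same sign in females and males. For interferon the female median was 0.22. The male median (0.21) rested on HT male 1: the other 4 HT males had list levels of -0.35 to -0.086, and the WT males -0.16 to -0.042.

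**Figure D4:**
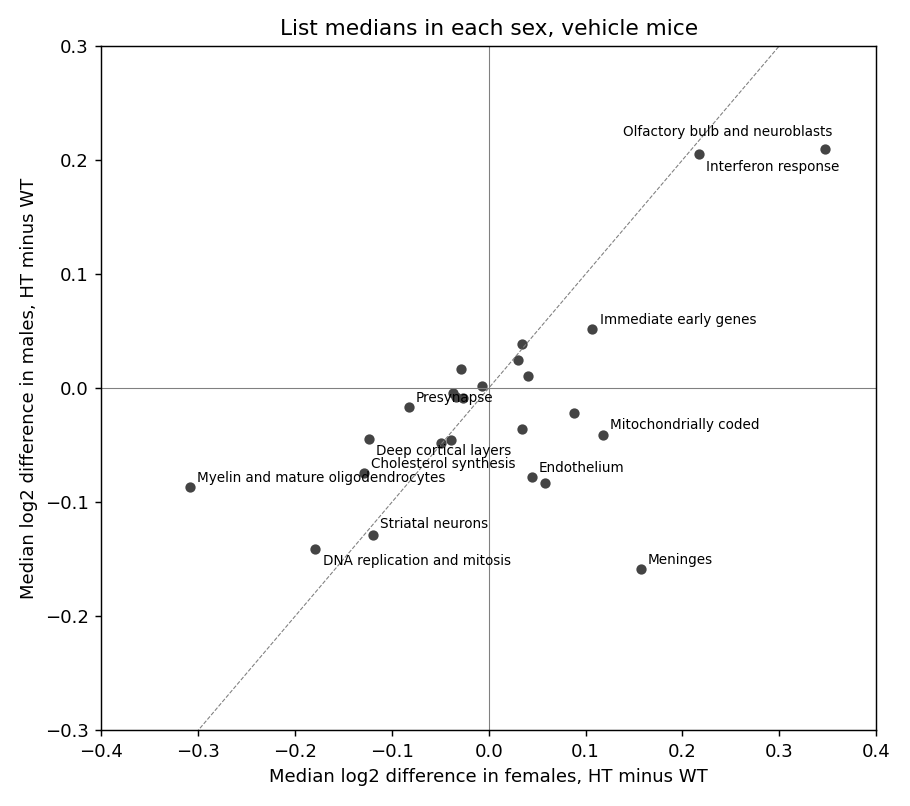
Median genotype difference (log2, HT minus WT) of 25 gene lists in vehicle females (horizontal axis) and vehicle males (vertical axis), with a dashed line where both are equal. Cholesterol, myelin, cell division and striatal lists lie below 0 in both sexes, interferon and olfactory lists above 0 in both (for interferon in males with HT male 1 at a level of 1.32 and the other 4 HT males at -0.35 to -0.086), and meninges lie at 0.16 in females and -0.16 in males.

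Most of the higher genes with the smallest p under vehicle had the opposite sign in the fluoxetine libraries. The genotype contrasts of the 3 arms share no library. Of the 15 higher genes, 1 had the same sign under fluoxetine (Phlda1), 9 under lithium and 0 under both, and of the 15 lower genes 8, 5 and 3 did. The median difference of the 15 higher genes was 0.22 under vehicle, -0.050 under fluoxetine and 0.017 under lithium, and that of the lower genes was -0.21, -0.0029 and 0.025. Of all 814 genes at an unadjusted p under 0.05 under vehicle, 335 (41.2%) had the same sign under fluoxetine and 494 (60.7%) under lithium. Over the 12545 coding genes averaging at least 50 normalized reads, the differences had a Pearson r of -0.17 between vehicle and fluoxetine and 0.30 between vehicle and lithium. Genes are not independent, so these values describe the libraries. Tnnt2 was an example of a gene that was higher in both (0.51 under vehicle and 0.45 under lithium), with -0.16 under fluoxetine.

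Cbx7 had the smallest limma p for a difference between the vehicle and lithium arms. The vehicle difference minus the lithium difference was 0.26 ± 0.052, from 0.14 under vehicle to -0.12 under lithium, with an adjusted p of 0.193 in limma, 0.193 in edgeR, 0.0095 in DESeq2 and 0.041 in limma with library weights. Over 28 alternatives the adjusted p ran from 0.0095 to 0.575, and 2 called it. Against fluoxetine the difference was 0.22 ± 0.052 (limma adjusted p = 0.652). Across all genes limma and edgeR called 0 for either interaction. At an unadjusted p under 0.05, limma had 1128 genes (6.29%) against fluoxetine and 1196 (6.67%) against lithium, and edgeR 1176 and 1196. DESeq2 called 2 against fluoxetine (0.0112%; Gm42890 and Gm9794) and 4 against lithium (0.0223%; Cbx7, Gm12671, Rps13-ps1 and Gm10222). Among coding genes averaging at least 50 normalized reads, others of small p against fluoxetine were Zscan18 and Rabl2 on the higher side and Mpc2, the mitochondrial pyruvate carrier, Ier5 and Cox5a on the lower. Ier5 was at -0.20 ± 0.084 under vehicle and 0.27 under fluoxetine. Against lithium they were Farp1 and Tnfrsf12a, and Ptpra, Haus2 and Gng10.

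**Figure D5:**
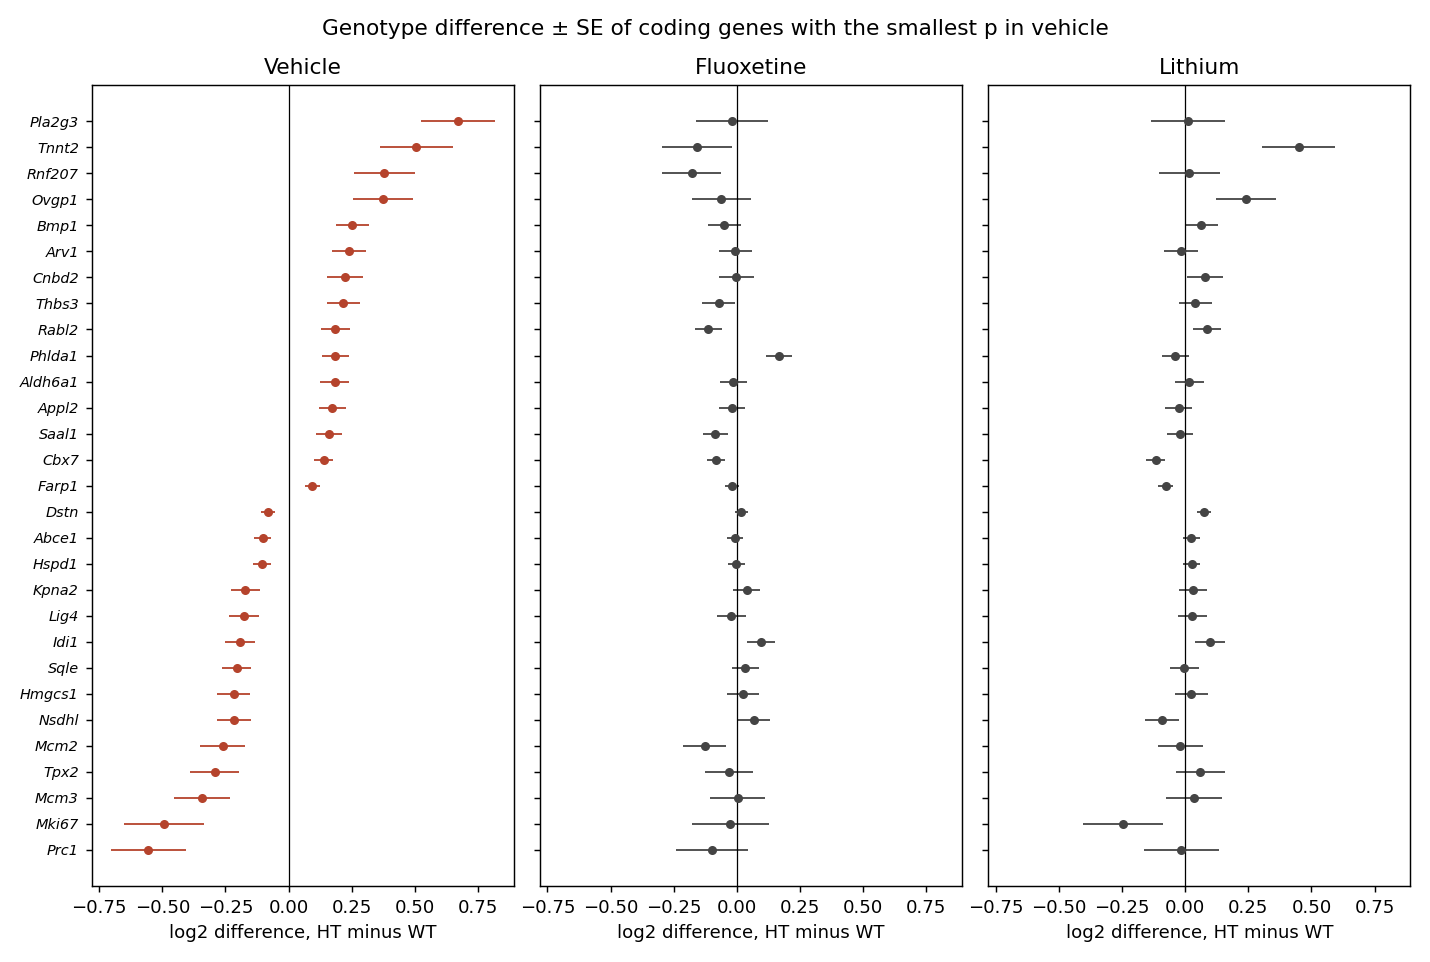
Genotype difference (log2, HT minus WT, point and SE) of the 15 higher and 14 of the 15 lower coding genes with the smallest p under vehicle, in the vehicle, fluoxetine and lithium libraries. The order is by vehicle difference, and the points of the drug arms scatter around 0, with Pla2g3 at -0.020 and 0.010 and Tnnt2 at 0.45 under lithium.

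The other 2 genes called by DESeq2 under vehicle were pseudogenes with reads in some mice and none in others. Gm12671, a processed pseudogene, had reads in 8 of 9 WT mice (median 2336) and in 1 of 10 HT mice (HT male 4, at 3010), with a DESeq2 adjusted p of 0.0045, a limma adjusted p of 0.947 and a range of 0.0045 to 1 over 30 alternatives. In the fluoxetine libraries it had reads in 3 of 10 HT and 4 of 10 WT mice, and in the lithium libraries in 3 of 9 and 2 of 10. Gm10222, an unprocessed pseudogene on chromosome 1, had reads in 2 of 10 HT and 2 of 9 WT mice, with means of 2145 and 2173. DESeq2 called it (adjusted p = 7.0e-08) where limma gave an adjusted p of 0.998, and the range over 30 alternatives was 7.0e-08 to 1. Pseudogenes share sequence with the genes they copy, and how the authors' counting split such reads was not tested.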

How the data were processed

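Bulk RNA of the prefrontal cortex was sequenced from 58 mice, 1 library each, and reads were assigned to GRCm38 transcripts with Salmon 0.11.2 and normalized in R 3.6.0 with DESeq2 1.19.11, per the submitters' processing notes. The deposited table holds normalized signal: gene counts that the authors divided by a size factor per library, so totals are alike and gene length is not corrected. Steps in the low values gave back whole reads for 100% of values within 0.01, and 11 libraries have a step so near 1 that this holds less firmly there. Per mouse, 24060000 to 30520000 reads were recovered under vehicle. Of 18088 genes, 18077 matched a GENCODE entry of GRCm38, and 163 fell under the minimum of 10 in 4 libraries. The unit differed from the raw counts assumed for the count tests, so the main test was limma 3.58.1 (R 4.3.3) on log2(value + 1) with a mean-variance trend over 12 groups of genotype, drug and sex, and Benjamini-Hochberg adjustment over 17925 genes. The confidence intervals are at 95%. edgeR 4.0.16 and DESeq2 1.42.0 on recovered reads, pseudocounts of 0.1 and 5, filters, library weights, a replicate block, a vehicle-only fit and each vehicle mouse left out were alternatives. Fitting was tested on simulated data. No 2 vehicle libraries agreed within counting noise (171 pairs). Named genes were the 15 with the smallest p in each direction among coding genes averaging at least 50 normalized reads, with fewer for the other contrasts, the Tanc family, 5 neighbours on each side and genes called by a count tool. The members and gene lists were chosen with earlier results of these data known, and the cell division and chaperonin lists after the values were seen, so list counts are descriptions with no test. Members of any list were measured in the same mice and can vary together, so their shares are not counts of independent observations. Promoter windows are those of RefSeq, GRCm38.p6. Some genes are not reported here, 1 of the 15 lower named genes among them.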

Additional observations from a re-analysis of the deposited data

Results flagged for a closer look

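A single mouse stood apart from the other mice of its genotype, by the gap to its nearest neighbour as a share of the genotype's range, in 9 of 208 sets of values. For independent, normally spread values the limit would flag about 1 in 20 sets. These sets share mice and some share genes, so the tally cannot show whether any one flag is chance. For gene lists, HT male 1 had an interferon level of 1.32 on the log2 scale, with the next HT mouse at 0.42. HT female 1 had the lowest myelin level at -0.612 (next -0.179) and the lowest striatal level at -0.274 (next -0.121). WT male 2 had the highest level of red blood cell genes at 0.637 (next 0.0811). For single genes in normalized reads, Nat8f1, an acetyltransferase relative, was 184 in HT male 2 (next 158), and Ptpra, a receptor phosphatase, was 5350 in HT female 2 (next 5140). Dcaf7, a neighbour of Tanc2, was 9620 in WT female 2 (next 8920). The pseudogene Gm12671 was 3010 in HT male 4, with 0 in every other HT mouse, and Gm10222 was 17100 in HT female 2, with 4370 in the next HT mouse.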

How the results depend on the processing

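Calls were few under every alternative. DESeq2 on recovered reads called 3 genes for genotype under vehicle, 3 in females, 1 in males, 1 for the sex difference, 2 against fluoxetine and 4 against lithium, where limma called 0 in each. Library weights gave 2 (Pla2g3 and Ager), 3 in females (Appl2, Bmp1 and Pla2g3), 0 in males, 1 for the sex difference (Gm3005), 2 against fluoxetine (Ier5 and Gm42890) and 1 against lithium (Cbx7), and for genotype in vehicle moved the genes at an unadjusted p under 0.05 from 814 to 3185. Ager, Gm3005 and Gm42890 were named after their values were seen. With the replicate number as a block, 1 gene (Gm42890) was called against fluoxetine. Same-numbered HT and WT mice deviated with a correlation of -0.30 to 0.081. These numbers are those of the sample titles, and for 2 WT males the library name carries another number. The check and the block therefore cannot show whether mice were paired or shared a batch. Leaving out each vehicle mouse gave 0 to 1 calls for the sex difference and 0 to 1 in males, in both cases Gm3005 without HT male 3, and 0 for genotype under vehicle, in females and against either drug. The causes were not tested. Pseudocounts, filters, quantile normalization, edgeR and a fit of the 19 vehicle libraries alone called 0 genes in each comparison they could be run for. Tanc2 stayed higher in HT, by 0.080 to 0.125, uncalled in all. The fatty acid median ran to -0.064 without HT female 4.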
